A study of Mus musculus with 5 samples.

Results

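Heat shock proteins are the molecular chaperones of the cell, and the transcripts described here are those of 10 of them in macrophages taken from mouse fibrosarcomas: Hspa1a, Hspa1b, Hspa5, Hspa8, Hsp90aa1, Hsp90ab1, Hspd1, Hspe1, Hsph1 and Dnajb1. They were chosen by symbol, and each was found in 1 row of the 24982 in the authors' deposited table, in no case joined with another symbol. The study sequenced RNA of tumor macrophages in 2 groups, MEK1-hi with 3 libraries and MEK1-low with 2, from tumors of the MCA fibrosarcoma line 9609. In the labels MEK1-hi and MEK1-low name the tumor line, its genotype and the exosomes (small vesicles shed by cells) given as treatment, and the MEK1-low exosomes carry the note GFP. MEK1 is the kinase that phosphorylates ERK. Mouse strain, age, the way the macrophages were isolated and any pooling of animals were not stated in the labels. The design compares the macrophages' transcripts between the MEK1-hi and MEK1-low groups. Their labels share the line number 9609 and differ in its MEK1-hi or MEK1-low form, genotype and exosome treatment together.

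Chaperones bind unfolded proteins and release them for refolding or degradation. HSP70 proteins work in cycles of ATP hydrolysis that J-domain proteins such as Dnajb1 start and nucleotide exchange factors such as Hsph1 reset, and HSP90 proteins act later on kinases, receptors and other clients. Most cytosolic members have heat shock factor binding elements in their promoters and are induced by heat, toxic agents and tissue handling, while Hspa5 answers to protein load in the endoplasmic reticulum and Hspd1 with Hspe1 forms the folding chamber of mitochondria.

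The clearest sequence feature among the members is that the inducible HSP70 genes Hspa1b and Hspa1a are near copies. They are shown because they had the highest fold changes of the 10 members and because reads from one can match the other. Of the 250 bases before each start, 247 were the same (98.8%), and the substitutions from Hspa1b to Hspa1a, counted from 1 at the 5′ end of the printed sequence, were T44C, C47T and G249T. Both lie on the minus strand of chromosome 17 with 10120 bases between their loci. The sequences are RefSeq promoters of GRCm38.p6 (mm10), at chr17:34959239-34959488 for Hspa1b and chr17:34972157-34972406 for Hspa1a, and capitals mark a 2-unit heat shock element.
Hspa1b: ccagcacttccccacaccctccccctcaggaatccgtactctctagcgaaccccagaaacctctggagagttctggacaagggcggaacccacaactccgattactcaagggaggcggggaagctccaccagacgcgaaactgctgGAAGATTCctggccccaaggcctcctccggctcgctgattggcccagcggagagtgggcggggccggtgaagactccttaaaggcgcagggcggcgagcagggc
Hspa1a: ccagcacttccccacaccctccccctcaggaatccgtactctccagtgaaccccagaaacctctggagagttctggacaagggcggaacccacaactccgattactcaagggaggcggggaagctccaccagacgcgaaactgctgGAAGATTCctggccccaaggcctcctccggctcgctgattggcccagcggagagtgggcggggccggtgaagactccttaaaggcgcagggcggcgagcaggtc

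The mitochondrial pair and the endoplasmic reticulum member have other promoters. Hspe1 and Hspd1 are transcribed away from each other, and the Hspe1 window of 300 bases overlapped one Hspd1 window by 285 bases and the other by 4, on opposite strands. Most of the Hspe1 sequence (chr1:55087898-55088147, plus strand) is therefore the reverse complement of part of an Hspd1 promoter (chr1:55087933-55088182, minus strand). Capitals mark overlapping heat shock elements there and the ER stress element in Hspa5 (chr2:34771840-34772089, plus strand).
Hspe1: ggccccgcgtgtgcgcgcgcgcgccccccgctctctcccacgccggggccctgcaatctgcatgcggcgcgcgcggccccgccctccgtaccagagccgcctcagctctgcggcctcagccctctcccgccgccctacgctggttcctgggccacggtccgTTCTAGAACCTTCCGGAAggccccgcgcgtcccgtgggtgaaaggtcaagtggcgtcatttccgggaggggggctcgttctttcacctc
Hspa5: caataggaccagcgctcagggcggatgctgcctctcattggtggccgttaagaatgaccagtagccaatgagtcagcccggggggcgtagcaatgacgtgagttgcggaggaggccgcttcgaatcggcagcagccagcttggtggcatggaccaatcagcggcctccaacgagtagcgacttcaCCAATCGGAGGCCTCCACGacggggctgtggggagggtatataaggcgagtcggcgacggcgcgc

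Motifs were searched on both strands of the window from 250 bases before to 50 after each start. The 3-unit heat shock element (GAANNTTCNNGAA) was present for Hspd1, Hspe1 and Hsph1, which is 3 of the 7 members with a window, and for 0.662% of the 27025 genes with one. The Hspd1 and Hspe1 matches are the same DNA, where their windows overlap, and the other Hspd1 window has no match. In Hsph1 the 3-unit element began 37 bases after the start of one window and 16 after that of the other. The 2-unit element (GAANNTTC or TTCNNGAA), which every 3-unit match also contains, was present for 5 of the 7 members and for 17% of all genes. In Hspa1b and Hspa1a it began 104 bases before the start. The 5 members do not stand for separate promoters, since Hspd1 shares its matches with Hspe1 and the Hspa1b and Hspa1a promoters are near copies. The ER stress element (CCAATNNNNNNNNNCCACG) was present for Hspa5 alone of the 7 members, 65 bases before the start, and for 0.137% of all genes. Windows of Hspa8, Hsp90aa1 and Hsp90ab1 were not used here. These matches describe letters in the windows and say nothing of binding.

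All values below are the authors' pooled FPKM (fragments scaled by transcript length and by library size), 1 per group, so they carry no SD and no values per library. Error enters through the statistic of Cuffdiff, the authors' test, with its p and its q (the adjusted p). A gene is called at a q of 0.05 or lower. The log2 fold changes, MEK1-hi over MEK1-low, were computed here from the FPKM. Depth per library cannot be read from the table, and the labels plan for about 25000000 reads per library. The labels do not say whether the libraries came from separate animals. The spread between libraries that enters p and q may therefore be technical, and need not be that between animals. In such bulk samples more cells that make a transcript and more of it per cell cannot be told apart.

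Macrophage markers were abundant, with all 13 above 1 FPKM in at least one group. The authors' test called 0 of the 13, and at an unadjusted p under 0.05, 1 was lower and 0 higher. The lower marker was Mrc1, with 142 FPKM in MEK1-hi and 236 FPKM in MEK1-low (p = 0.017, q = 0.46 in the authors' deposited table). Adgre1, which encodes F4/80, had 411 FPKM in MEK1-hi and 388 FPKM in MEK1-low, and Csf1r, the receptor for the macrophage growth factor CSF1, had 628 FPKM in MEK1-hi and 680 FPKM in MEK1-low. Transcripts of other cells were present too. Those of fibroblasts, pericytes and tumor cells summed to 1190 FPKM in MEK1-hi and 1852 FPKM in MEK1-low. All 14 log2 fold changes of this list lay below 0 (median -0.87). The authors' test called 4 of these 14 lower and 0 higher, beside 0.325% and 0.999% of all tested rows. At an unadjusted p under 0.05, 10 of the 14 were lower and 0 higher, beside 2.58% and 3.5% of all tested rows. Dendritic cell markers summed to 73.1 FPKM in MEK1-hi and 55.3 FPKM in MEK1-low, and of the 8, all tested, 2 were called higher and 0 lower, with 7 log2 fold changes above 0. The called genes mark cross-presenting dendritic cells. Clec9a had 5.58 FPKM in MEK1-hi and 0.931 FPKM in MEK1-low (q = 0.00676 in the authors' deposited table), and Xcr1 had 4.17 FPKM in MEK1-hi and 1.53 FPKM in MEK1-low (q = 0.0163 in the authors' deposited table). NK cell markers summed to 25.0 FPKM in MEK1-hi and 8.35 FPKM in MEK1-low, with 6 of the 8 below 1 FPKM in both groups and 4 tested. Most of that sum was Klrk1, a receptor also made by T cells, which was called higher at 18.1 FPKM in MEK1-hi and 5.27 FPKM in MEK1-low (q = 0.00676 in the authors' deposited table), while Ncr1, Klrb1c, Eomes and Klre1 were not tested. The T cell, B cell, neutrophil, endothelial and erythroid lists had 0 genes called by Cuffdiff. In that order, 8, 1, 4, 5 and 4 of their genes were tested. Of the 8 T cell log2 fold changes, 6 lay above 0 and 2 below, with a median of 0.62. At an unadjusted p under 0.05, 1 gene was higher and 1 lower in each of the T cell and neutrophil lists, and 0 in the other three.

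Of the inducible HSP70 copies, which refold proteins after heat and other stress, Hspa1b was higher in MEK1-hi macrophages, and it alone of the 10 members passed the authors' test. Hspa1b had 81.7 FPKM in MEK1-hi and 43.0 FPKM in MEK1-low, a 1.90-fold difference (0.92 on the log2 scale). Its statistic in the authors' deposited table was 2.29, with p = 0.0006 and q = 0.0465. Hspa1a had 84.3 FPKM in MEK1-hi and 50.6 FPKM in MEK1-low, which is 0.74 on the log2 scale, and was not called in the authors' deposited table (statistic 1.82, p = 0.00605, q = 0.239). Whether the fold changes of the copies differ was not tested. Together they had 166 FPKM in MEK1-hi and 93.7 FPKM in MEK1-low, a ratio of 1.77.

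That makes 1 of 10 members called higher and 0 lower, where the authors' test called 123 of the 12311 tested rows higher (0.999%), 40 lower (0.325%) and 163 in either direction (1.32%). With 10 members a single call is the smallest count above 0. The Hspa1b call was also close to the threshold, and it was lost at a q of 0.01, which kept 91 called rows. It was lost too under the Benjamini-Yekutieli adjustment, but that called 0 rows of the whole table, so this loss is not particular to Hspa1b. A normal p computed from the deposited statistic also lost it and called only 15 rows in place of 163. Only 4 of the 163 called rows had a larger q than Hspa1b, the largest being 0.0491, and 12 had a smaller absolute log2 fold change, the smallest being 0.82. At an unadjusted p under 0.05, 2 of the 10 members were higher and 0 lower, beside 6.08% of tested rows in either direction, 3.5% higher and 2.58% lower. Those members were Hspa1a and Hspa1b, near copies that can share reads, so they do not stand for separate observations. The log2 fold change of Hspa1b was above that of 98% of the 11350 rows with at least 1 FPKM in a group and a value above 0 in both, and that of Hspa1a above 97%.

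**Figure D1:**
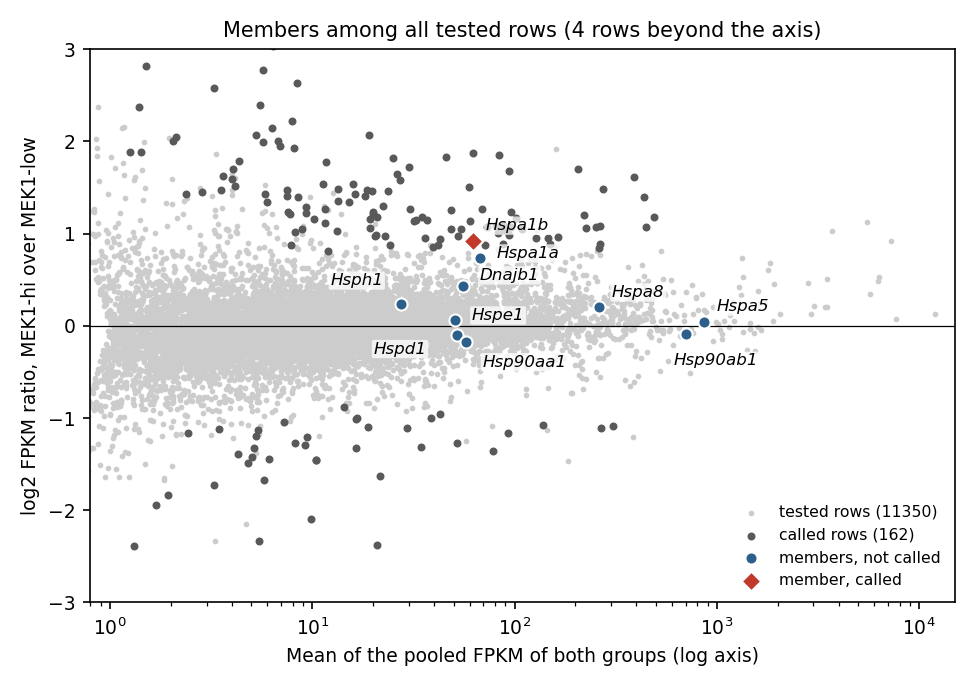
Each point is 1 tested row, with the mean of the pooled FPKM of both groups on a log axis and the log2 FPKM ratio of MEK1-hi over MEK1-low on the vertical axis. Pale points are all 11350 rows with at least 1 FPKM in a group and a value above 0 in both, dark points the 162 called among them, the diamond Hspa1b (0.92), and large circles the other 9 members, of which Hspa1a (0.74) lies highest.

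The annotation shows where the copies can be told apart. In GENCODE release M21 both are genes of 1 exon on the minus strand of chromosome 17, and in the authors' deposited table their loci are 34956429 to 34959238 for Hspa1b and 34969359 to 34972156 for Hspa1a (mm10). Their coding sequences matched at 1918 of 1926 aligned bases (99.6%). Of all stretches of 100 bases, the read length, 49.9% of the Hspa1b transcript and 56.5% of the Hspa1a transcript occurred in a transcript of another gene. Within the coding part the shares were 68% for Hspa1b and 73.1% for Hspa1a, and after the stop codon 0% for both. Reads from the coding part could therefore have been assigned to either copy, and the values of the single copies are less certain than their sum. The level of Hspa1b relative to Hspa1a was 0.968 in MEK1-hi and 0.850 in MEK1-low.

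**Figure D2:**
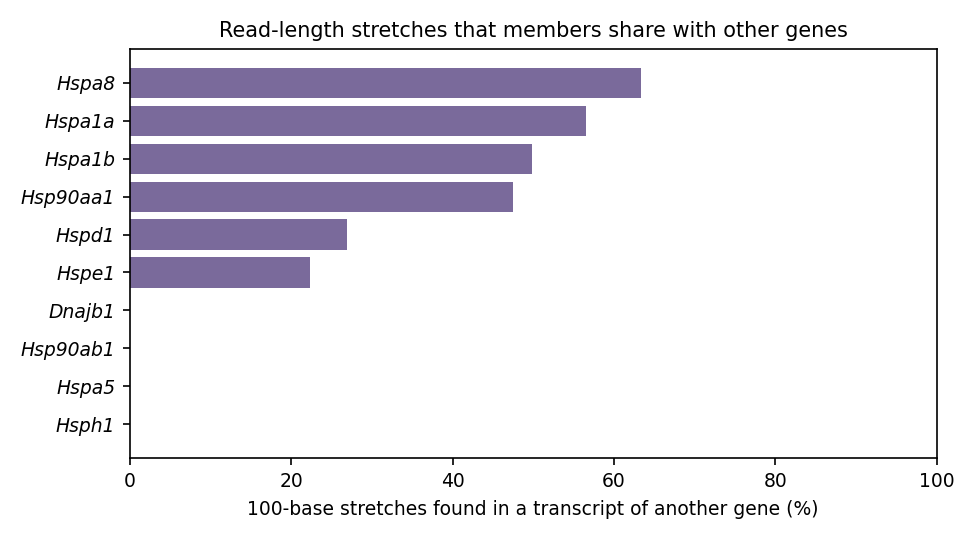
Bars give, for the longest coding transcript of each member in GENCODE M21, the percentage of its stretches of 100 bases that also occur in a transcript of another gene, on either strand. Hspa8 (63.4%), Hspa1a (56.5%) and Hspa1b (49.9%) share most, and Hspa5, Hsp90ab1, Hsph1 and Dnajb1 share 0%.

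Partners of the HSP70 cycle had log2 fold changes above 0, and neither was called. Dnajb1, the heat-inducible J-domain protein that stimulates the ATPase of HSP70 (chromosome 8, 83608175 to 83612653), had 64.0 FPKM in MEK1-hi and 47.5 FPKM in MEK1-low. Its log2 fold change was 0.43, with p = 0.0781 and q = 0.956 in the authors' deposited table. Hsph1, the HSP110 protein that exchanges the nucleotide of HSP70 (chromosome 5, 149616845 to 149636336), was the least abundant member, at 29.7 FPKM in MEK1-hi and 25.2 FPKM in MEK1-low. Its log2 fold change was 0.24 (p = 0.325, q = 0.9998 in the authors' deposited table). No stretch of 100 bases in Dnajb1 or Hsph1 occurred in another gene's transcript.

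Constitutive HSP70 of the cytosol did not pass the test either. Hspa8, the HSC70 protein that also uncoats clathrin vesicles and is a common cargo of exosomes (chromosome 9, 40801276 to 40805202), had 281 FPKM in MEK1-hi and 245 FPKM in MEK1-low. That is 0.20 on the log2 scale, with p = 0.425 and q = 0.9998 in the authors' deposited table. The ratio of Hspa8 to the summed inducible copies was 1.69 in MEK1-hi and 2.61 in MEK1-low, so the constitutive transcript was the more abundant in both groups. Of its stretches of 100 bases, 63.4% occurred in transcripts of other genes, 9 in number. Its value therefore depends on how shared reads were assigned, and may be too high or too low.

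Hspa5 encodes BiP, the HSP70 of the endoplasmic reticulum that binds new secretory proteins and holds the stress sensors inactive. On chromosome 2 (34772090 to 34776529) it was the most abundant member, at 874 FPKM in MEK1-hi and 846 FPKM in MEK1-low. Its log2 fold change was 0.05, with p = 0.889 and q = 0.9998 in the authors' deposited table, and turned to -0.05 when both groups were rescaled to the same FPKM sum. None of its stretches occurred in another gene's transcript.

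Both cytosolic HSP90 transcripts had log2 fold changes slightly below 0 and were not called. Hsp90ab1, the constitutive form (chromosome 17, 45567778 to 45573261), had 679 FPKM in MEK1-hi and 722 FPKM in MEK1-low (log2 fold change -0.09, p = 0.775, q = 0.9998 in the authors' deposited table). Hsp90aa1, the stress-inducible form (chromosome 12, 110691036 to 110696395), had 53.9 FPKM in MEK1-hi and 60.7 FPKM in MEK1-low (log2 fold change -0.17, p = 0.454, q = 0.9998 in the authors' deposited table). In FPKM the constitutive form was 12.6-fold the inducible one in MEK1-hi and 11.9-fold in MEK1-low. The difference in fold change between Hsp90aa1 and Hspa1b, both heat-inducible, was not tested. Of the Hsp90aa1 stretches of 100 bases, 47.5% occurred in other genes, against 0% for Hsp90ab1. The level of Hsp90aa1 and the ratio of the forms therefore depend on how shared reads were assigned.

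The mitochondrial pair that shares a promoter showed differences near 0 in opposite directions. Hspe1, the lid of the chamber known as HSP10, had 52.0 FPKM in MEK1-hi and 49.7 FPKM in MEK1-low (log2 fold change 0.06, p = 0.905, q = 0.9998 in the authors' deposited table). Hspd1, the HSP60 protein of the chamber wall, had 50.1 FPKM in MEK1-hi and 53.6 FPKM in MEK1-low (log2 fold change -0.10, p = 0.716, q = 0.9998 in the authors' deposited table). The level of Hspd1 relative to Hspe1, both per transcript length, was 0.964 in MEK1-hi and 1.08 in MEK1-low. The authors' deposited table gives both genes the same locus, chromosome 1, 55077833 to 55091317. Their GENCODE models overlap by 112 bases on opposite strands, where reads can be told apart only if counting used strand. The log2 fold change divided by the statistic, which grows as the estimate becomes less precise, was 0.828 for Hspe1, whose transcript of 774 bases is the shortest, and 0.366 to 0.514 for the other 9 members.

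**Figure D3:**
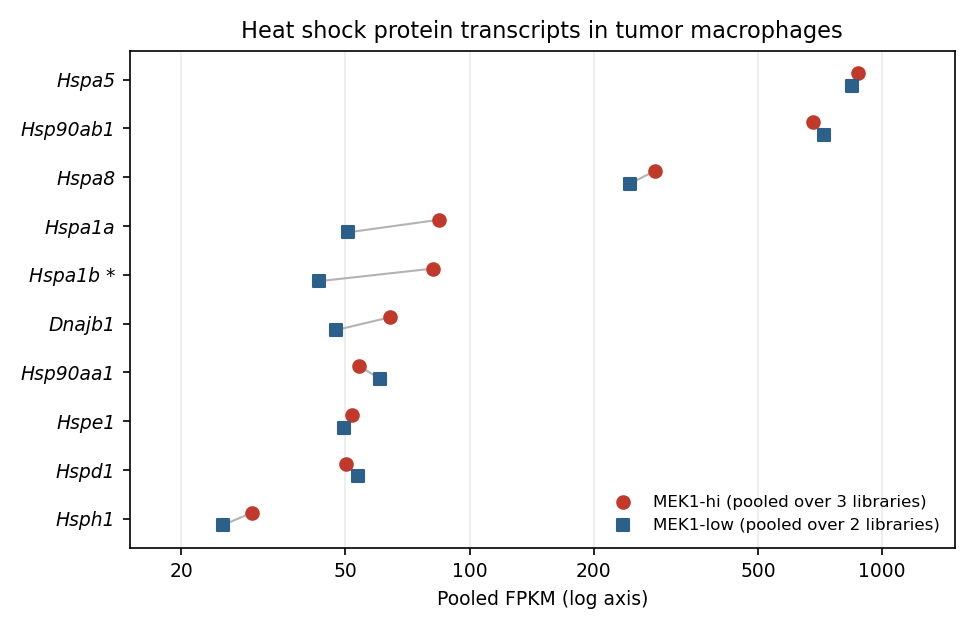
Each member's authors' pooled FPKM is drawn on a log axis, as a circle for MEK1-hi (pooled over 3 libraries) and a square for MEK1-low (pooled over 2 libraries), with members in descending MEK1-hi order and an asterisk on the called one. The copies Hspa1a and Hspa1b have the widest gaps, at 84.3 FPKM in MEK1-hi and 50.6 in MEK1-low for Hspa1a and 81.7 FPKM in MEK1-hi and 43.0 in MEK1-low for Hspa1b, while Hspa5, Hsp90ab1 and Hspe1 nearly coincide.

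In both groups Hspa5, Hsp90ab1 and Hspa8 were the 3 most abundant members, in that order, and Hsph1 the least. The range from Hspa5 to Hsph1 was 29.4-fold in MEK1-hi and 33.6-fold in MEK1-low. Between these ends the order differed. In MEK1-hi the inducible Hspa1a and Hspa1b took places 4 and 5, while in MEK1-low Hsp90aa1 and Hspd1 held those places and Hspa1b took place 9. Without an error per group, it cannot be said which neighbours in the order differ. The places of members that share stretches with other genes also depend on how shared reads were assigned. Over the 10 members 7 log2 fold changes were above 0 and 3 below, with a median of 0.13, beside -0.02 over the 11350 rows. Leaving out Hspa1a and Hspa1b, the other 8 members had a median of 0.06 and ranged from -0.17 to 0.43. Summed, the members had 2249 FPKM in MEK1-hi and 2143 FPKM in MEK1-low, mostly from Hspa5 and Hsp90ab1.

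The rest of the chaperone system gave 0 calls. Over the 10 chaperone lists 150 distinct genes were tested, and the authors' Cuffdiff test called 0 of them. A normal p computed from the deposited statistic also called 0, but it called only 15 rows of the whole table. The authors' test gave an unadjusted p under 0.05 for 2 of the 150 with a higher and 1 with a lower level in MEK1-hi. Of all tested rows 1.32% were called and 6.08% had an unadjusted p under 0.05, so a count of 0 calls lies near the background. Other HSP70 and HSP110 genes had 10 tested and 0 with an unadjusted p under 0.05 (median log2 fold change -0.04). Hspa9, the HSP70 of mitochondria, had 116 FPKM in MEK1-hi and 134 FPKM in MEK1-low (q = 0.9998 in the authors' deposited table). Hyou1, the large HSP70 of the endoplasmic reticulum, had 53.9 FPKM in MEK1-hi and 61.0 FPKM in MEK1-low. Hspa1l, the neighbour of Hspa1a on the plus strand of chromosome 17 (named after its values were seen), had 0.958 FPKM in MEK1-hi and 0.897 FPKM in MEK1-low. The other HSP90 genes had 2 tested. Hsp90b1, the HSP90 of the endoplasmic reticulum, had 386 FPKM in MEK1-hi and 394 FPKM in MEK1-low, and Trap1, that of mitochondria, had 37.1 FPKM in MEK1-hi and 38.1 FPKM in MEK1-low.

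Among J-domain proteins 36 were tested, 0 were called and 0 had an unadjusted p under 0.05 (median 0.05, 25 above 0 and 11 below). Dnajb11, of the endoplasmic reticulum, had 87.4 FPKM in MEK1-hi and 75.6 FPKM in MEK1-low, and the cytosolic Dnaja2 had 77.6 FPKM in MEK1-hi and 72.3 FPKM in MEK1-low. The 29 co-chaperones of HSP70 and HSP90 had a median of -0.02. One of them, Fkbp5, an HSP90 partner that steroid hormones induce, had an unadjusted p = 0.0251 (q = 0.581 in the authors' deposited table) and is named after its values were seen. It had 16.0 FPKM in MEK1-hi and 23.4 FPKM in MEK1-low. Ahsa1, which activates the HSP90 ATPase, had 116 FPKM in MEK1-hi and 103 FPKM in MEK1-low, and Fkbp8 had 117 FPKM in MEK1-hi and 120 FPKM in MEK1-low.

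Heat shock factors and other targets of HSF1, the main transcriptional activator of the heat shock response, were not called. Hsf1 itself had 19.4 FPKM in MEK1-hi and 20.2 FPKM in MEK1-low (log2 fold change -0.06, q = 0.9998 in the authors' deposited table), a level of transcript that does not measure the factor's activity. Hsbp1, which binds HSF1, had 93.7 FPKM in MEK1-hi and 87.9 FPKM in MEK1-low. Of 24 tested HSF1 targets outside the members, 12 lay above 0 and 12 below (median 0.01). Bag3, a co-chaperone of HSP70 that directs clients to autophagy, had 56.7 FPKM in MEK1-hi and 47.5 FPKM in MEK1-low (log2 fold change 0.26, q = 0.9998 in the authors' deposited table). Sqstm1, the autophagy receptor p62, had 876 FPKM in MEK1-hi and 706 FPKM in MEK1-low, and the ubiquitin gene Ubb had 646 FPKM in MEK1-hi and 654 FPKM in MEK1-low. The target with an unadjusted p under 0.05 was Rrad, named after its values were seen, with 79.2 FPKM in MEK1-hi and 49.3 FPKM in MEK1-low (p = 0.0044, q = 0.195 in the authors' deposited table).

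Small heat shock proteins, which hold unfolded proteins without ATP, were scarce. Of 10 listed, 4 were below 1 FPKM in both groups and 6 were tested, with 0 called and 0 at an unadjusted p under 0.05. The most abundant gene of the list was Hspb11 (13.7 FPKM in MEK1-hi and 13.8 FPKM in MEK1-low), and its listing does not show that its protein holds unfolded proteins. Next was Hspb6, whose row is joined with Gm38670 (4.21 FPKM in MEK1-hi and 4.37 FPKM in MEK1-low). The TRiC chaperonin and prefoldin, which fold actin and tubulin, had 14 tested and 0 called, with 11 below 0 and a median of -0.11. Cct2 had 155 FPKM in MEK1-hi and 167 FPKM in MEK1-low, and Cct5 had 144 FPKM in MEK1-hi and 157 FPKM in MEK1-low.

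Organelle stress genes were not called either. In the endoplasmic reticulum list 35 were tested, with 24 above 0, 11 below and a median of 0.11. Calr, the calreticulin that folds glycoproteins beside BiP, had 792 FPKM in MEK1-hi and 726 FPKM in MEK1-low (q = 0.9998 in the authors' deposited table). Its member with an unadjusted p under 0.05 was the oxidase gene Ero1lb, named after its values were seen, with 16.0 FPKM in MEK1-hi and 11.3 FPKM in MEK1-low (p = 0.0456, q = 0.791 in the authors' deposited table). The 18 tested mitochondrial chaperones, import and protease genes had a median of -0.08, with 5 above 0 and 13 below.

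**Figure D4:**
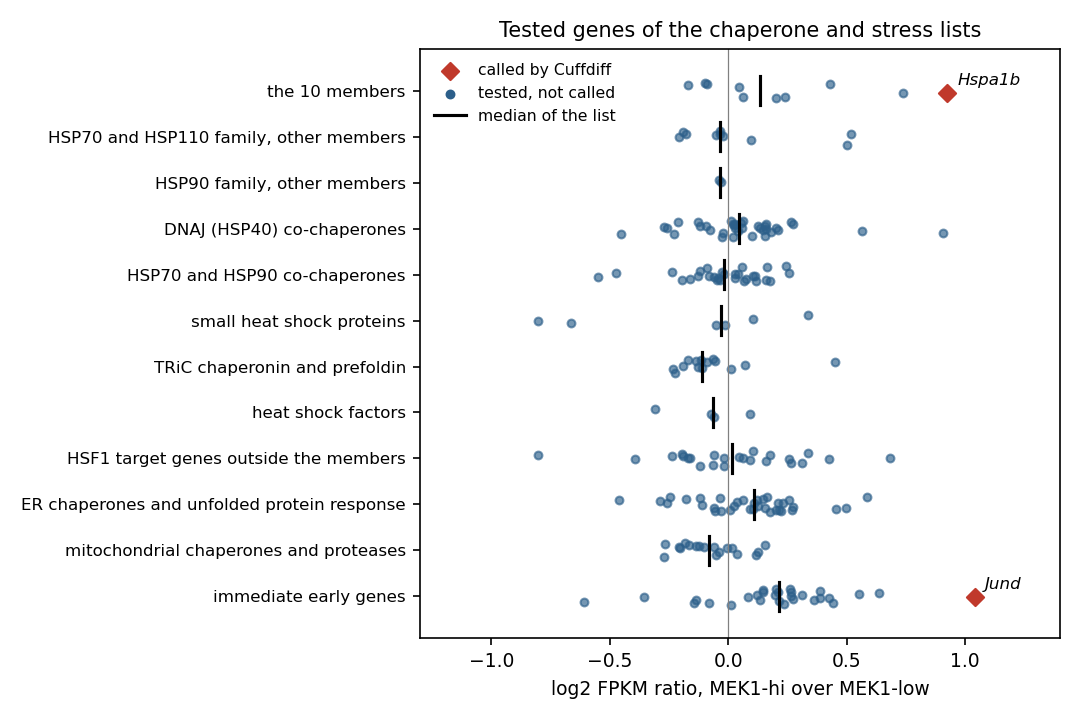
Each point is a tested gene of a list, placed by its log2 FPKM ratio of MEK1-hi over MEK1-low, with the vertical scatter for legibility only; bars are list medians and diamonds the genes called by Cuffdiff. Hspa1b (0.92) and Jund (1.04) are the called genes, and the medians lie between -0.11 (TRiC and prefoldin) and 0.22 (immediate early genes).

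Transcripts that tissue handling is known to induce were measured beside the inducible HSP70 genes. Of 29 immediate early genes tested, 1 was called higher and 0 lower by the authors' test, beside 0.999% and 0.325% of all tested rows. Of the 29, 24 lay above 0 and 5 below (median 0.22). Their summed FPKM was 8227 in MEK1-hi and 7304 in MEK1-low, and 0 were at 0. The called gene was Jund, an AP-1 factor, with 123 FPKM in MEK1-hi and 59.7 FPKM in MEK1-low (log2 fold change 1.04, statistic 2.79, q = 0.00676 in the authors' deposited table). At an unadjusted p under 0.05, 3 were higher and 1 lower, beside 3.5% and 2.58% of all tested rows. Those higher were Jund, Klf2 (p = 0.0114) and Socs3 (p = 0.0323 in the authors' deposited table). Egr2 was lower, with 53.9 FPKM in MEK1-hi and 82.1 FPKM in MEK1-low (p = 0.0211, q = 0.524 in the authors' deposited table). The 5 genes below 0 were Fos, Egr1, Egr2, Ier3 and Cyr61. All these but Jund are named after their values were seen. The part of tissue handling in the difference of Hspa1b was not tested. Neither was that of the fibroblast, pericyte and tumor, dendritic cell, T cell and NK cell marker lists given above.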

How the data were processed

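The 5 libraries (3 MEK1-hi, 2 MEK1-low) hold RNA of tumor macrophages. Stranded poly(A) libraries were prepared from 750 ng of RNA of integrity number over 8.0 and read as pairs of 100 bases, per the labels' protocols. Of tools, Cuffdiff, Cufflinks, TopHat and FastQC 0.73 are listed, and mm10 as the build, without their roles, per the submitters' processing notes. No source used here states the annotation or whether counting used strand.

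The authors deposited 1 Cuffdiff table with a pooled FPKM per group, a test statistic (a score) and a p-value and q-value per row, per the file headers. Of its rows, 12311 were tested, 12667 were not, 2 had too much data and 2 failed. The smallest deposited p is 5e-05, shared by 91 rows. No count model was applied, as FPKM are not counts, and p was never adjusted over a list. Log2 fold changes were computed here without a pseudocount, since the deposited column held spreadsheet error text. Comparisons of log2 fold changes with all rows used those with at least 1 FPKM in a group. Shares of rows called or with an unadjusted p under 0.05 used all 12311 tested rows.

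The members and 11 lists (194 genes, 178 tested) were chosen with earlier results of these data known. Named genes were the members, up to 4 called genes per list by absolute statistic or, with none called, the 2 most abundant, and Hspa9, Hsp90b1, Hsf1 and Bag3. The lists share genes. Loci, written 1-based, are the authors'; for 5 of the 7 members with a promoter window they begin at a RefSeq start on GRCm38. Shared stretches and coding sequences are from GENCODE M21, and no protein sequence was used. The adjustment and motif search were tested on simulated data. Tools were Python 3.11.15, biopython 1.88, matplotlib 3.10.9, statsmodels 0.14.6, scipy 1.17.1, pandas 2.3.3 and numpy 2.4.6.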

Additional observations from a re-analysis of the deposited data

How the results depend on the processing

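The number of members called depended on the source of p and on the threshold. It was 1 (Hspa1b) at a q of 0.1, with adjustment over rows of at least 1 FPKM and without rows of several symbols, and 0 at a q of 0.01, under the Benjamini-Yekutieli adjustment and with a normal p from the deposited statistic. Over the whole table those last 3 settings gave 91, 0 and 15 called rows in place of 163. For the union of the chaperone and stress lists, an alternative chosen after seeing the data, the single call (Jund) was lost under the Benjamini-Yekutieli adjustment (0) and with the normal p (0), and was 1 at a q of 0.01. The median log2 fold change of the members, 0.13, was 0.034 after rescaling to the same FPKM sum (a shift of -0.10), 0.15 and 0.12 after rescaling to the same median or upper quartile, and 0.064 with Hspa1a and Hspa1b summed. Of 50 fold changes of single members under the 5 scalings and pseudocounts, 48 kept their direction. The others, under rescaling to the same FPKM sum, were Hspa5 (-0.053) and Hspe1 (-0.035). Hspa1b ranged from 0.83 to 0.94 and Hspa1a from 0.64 to 0.75. The q values were not recomputed for scalings. Leaving out each library could not be run. No paired analysis was possible because the table holds 1 pooled value per group and no values per library. The depth behind a value is unknown, and no interval or detection floor is given.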
